A study of Mus musculus with 9 samples.

Results

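The 9 cytoplasmic assembly factors of ciliary dynein arms were followed in RNA from mouse embryonic forebrain cells that had received GemC1, Mcidas or a reporter plasmid. They were chosen by name: Dnaaf1, Dnaaf2, Dnaaf3, Dnaaf5, Dyx1c1 (now Dnaaf4), Lrrc6 (now Dnaaf11), Zmynd10, Spag1 and Ccdc103. All 9 were found among the 53379 gene identifiers of the count tables, and all 9 passed the low-count filter that left 19572 genes for testing.

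Dynein arms are the motors that bend motile cilia. Their heavy, intermediate and light chains are folded and joined into complexes in the cytoplasm, with the help of assembly factors and of the HSP90 and R2TP chaperones, before the arms are carried into the cilium and docked on the axoneme. Loss of an assembly factor leaves cilia that lack arms, which causes primary ciliary dyskinesia, and in the brain motile cilia are carried by the multiciliated ependymal cells and choroid plexus cells.

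GemC1 (gene symbol Gmnc) and Mcidas, both relatives of geminin, act in the nucleus to switch on the programme of multiciliated cells. Embryos of the strain labelled C57Bl6DBa2 were electroporated in utero at E14.5, and GFP-positive forebrain cells, labelled as neural progenitor cells, were sorted at E16.5, 2 days later. The GemC1 group (3 libraries) received the pCAGGS-GemC1 plasmid, the Mcidas group (3 libraries) the Mcidas plasmid, and the GFP group (3 libraries) the H2B-GFP plasmid. The series was set up to learn how GemC1 brings about multiciliated cell fate. Expression from pCAGGS, a strong and broadly active promoter, is not restricted to a cell type, and sorting by GFP takes any cell that carried the reporter.

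Libraries held between 22914704 and 41163917 counts. Gmnc was between 223 and 317 CPM (read counts scaled for library depth) in the GemC1 libraries and at most 0.260 CPM in the other 6. Mcidas was between 388 and 597 CPM in its own group, between 60.3 and 76.8 CPM with GemC1 and between 0.647 and 0.690 CPM with GFP. In a group that received the plasmid of a gene, plasmid and endogenous reads of that gene cannot be told apart. The labels name no Mcidas plasmid for the GemC1 group, whose libraries thus also held Mcidas RNA. Of 8 neural progenitor markers, 0 rose with either plasmid in edgeR's test at an adjusted p under 0.05. Hes5 fell in the Mcidas libraries, by 0.59 on the log2 scale (adjusted p = 0.0337). In the same test 4 had an unadjusted p under 0.05 in GemC1 against GFP, all of them higher (Sox2, Vim, Fabp7 and Slc1a3). The 2 in Mcidas against GFP, Hes5 and Eomes, were lower. DESeq2 called 3 and 1. The share of all genes with such an unadjusted p was not counted. In the GemC1 libraries 10 of 19 tested microglial markers rose, and their summed level over 20 genes was 86.4 to 127 CPM, against 34.5 to 50.4 CPM in the GFP libraries. The same sum was 53.8 to 78.3 CPM in the Mcidas libraries, where 2 of 19 rose, and none of the 20 was at 0 in all libraries of a group. Over all genes tested, 3.86% rose with GemC1 and 4.03% with Mcidas. The 8 choroid plexus markers summed to 4.27 to 9.80 CPM with GemC1, 3.48 to 8.96 CPM with Mcidas and 0.720 to 1.77 CPM with GFP. Of these, Ttr and Kl were at 0 in all GemC1 libraries and averaged at most 0.0535 CPM in the other groups. Only 2 of the 8 were tested. Clic6 rose with both factors and alone averaged 5.51 CPM with GemC1, 5.34 CPM with Mcidas and 0.110 CPM with GFP. Most of the rise in the sums is thus that of Clic6. The other tested marker, Kcnj13, did not pass in edgeR's test (log2 fold changes 0.22 and 0.73, adjusted p = 0.873 and 0.678). The part of these other cells in the results below was not tested. In bulk samples, a change in the number of cells of a type and a change in RNA per cell cannot be told apart. A year code in the file names separates the 3 Mcidas libraries from the other 6, so that anything tied to that code cannot be told apart from the Mcidas group. The labels do not state whether replicates were separate litters, and p-values therefore measure the spread between these libraries, which may be technical.

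Promoter sequences are shown because RFX factors and Foxj1 are known regulators of motile cilium genes, and all 9 genes had positive fold changes with both plasmids. RefSeq windows (build GRCm38.p6, 250 bases before to 50 bases after the start) were held for 6 of the 9 genes: Dnaaf2, Dnaaf3, Dnaaf5, Dyx1c1, Zmynd10 and Ccdc103. Capitals mark matches to the X-box, the paired site bound by RFX factors, and to its core GGCAAC, and each stretch is written 5′ to 3′ on the strand of the gene.
Dnaaf2, chr12:69198397-69198482, minus strand: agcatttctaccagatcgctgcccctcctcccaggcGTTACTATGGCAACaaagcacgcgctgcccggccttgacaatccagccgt
Dnaaf3, chr7:4532579-4532664, minus strand: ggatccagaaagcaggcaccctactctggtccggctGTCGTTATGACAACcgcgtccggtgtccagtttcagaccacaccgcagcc
Dnaaf5, chr5:139150181-139150266, plus strand: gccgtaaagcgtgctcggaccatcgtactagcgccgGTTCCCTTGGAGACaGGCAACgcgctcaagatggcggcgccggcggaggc
Dyx1c1, chr9:72958756-72958834, plus strand: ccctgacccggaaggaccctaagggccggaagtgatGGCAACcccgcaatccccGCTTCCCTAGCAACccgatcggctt
Zmynd10, chr9:107547268-107547353, plus strand: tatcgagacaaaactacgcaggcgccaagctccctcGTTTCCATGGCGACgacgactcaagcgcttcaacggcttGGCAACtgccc
Ccdc103, chr11:102881185-102881269, plus strand: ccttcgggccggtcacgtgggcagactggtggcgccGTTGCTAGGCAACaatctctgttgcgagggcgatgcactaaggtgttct

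The core GGCAAC (either strand) was found in 5 of the 6 windows, and in 12.5% of all 32851 windows of the same length. Dnaaf3 was the exception, with an X-box match but no core. An X-box match was found in 6 of 6 windows, against 34.7% of all windows, so the pattern is a loose one. It joins RYYNYYN and RRNRAC with few or no bases between them, on either strand. Here R is A or G, Y is C or T, and N is any base. The core lay inside the X-box match in Dnaaf2 and Ccdc103 and outside it in Dnaaf5, Dyx1c1 and Zmynd10. In 5 of 6, all but Dyx1c1, the X-box pattern matched both strands at the same place, against 7.66% of all windows. The forkhead motif GTAAACA (either strand) was in 0 of 6 and in 3.65% of all windows, and the E2F motifs TTTCCCGC, TTTGGCGC, TTTCGCGC and TTTGCCGC (either strand) were in 0 of 6 and in 2.26% of all windows. Counted from the first transcribed base as 1, the printed X-box match began at -163 in Dnaaf3, -18 in Dnaaf5, -17 in Dnaaf2, -3 in Ccdc103, 1 in Zmynd10 and 26 in Dyx1c1. Dnaaf3 had a further match at 13, on the strand of the gene only, which is not printed. Of the other assembly factors described below, 10 had windows, with an X-box match in 8 and the core in 4. The X-box matched both strands at the same place in Pih1d2, Ttc12 and 1110004E09Rik, which rose with both plasmids. It also did so in Wdr92 and Dnaaf9, which did not pass, and in Pih1d3, which was not tested. Daw1 rose and had no X-box match. A link between these sites and the changes was not tested. These matches describe letters only, and no binding was measured here.

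With GemC1, 6 of the 9 assembly factors rose over GFP and none fell (edgeR's quasi-likelihood test, Benjamini-Hochberg adjusted p under 0.05 over all genes tested). Of all 19572 genes, 3.86% rose in this comparison. The 6 were Zmynd10, Dnaaf3, Ccdc103, Dyx1c1, Spag1 and Dnaaf2, and the remaining 3, Dnaaf1, Lrrc6 and Dnaaf5, had positive fold changes that did not pass. The median log2 fold change of the 9 was 1.15, against -0.00038 over all genes. In 8 of 9 every GemC1 library was above every GFP library, an arrangement found in 13.2% of all genes.

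With Mcidas, 7 of the 9 rose and none fell, against 4.03% of all genes that rose. Dnaaf5 was called in addition to the 6 above. The median log2 fold change was 1.62, against -0.03 over all genes. In 9 of 9 every Mcidas library was above every GFP library, against 10.7% of all genes. Both comparisons use the same 3 GFP libraries, so they are given side by side and not as separate support. The plot of fold changes orders the 9 factors by the size of the change.

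**Figure D1:**
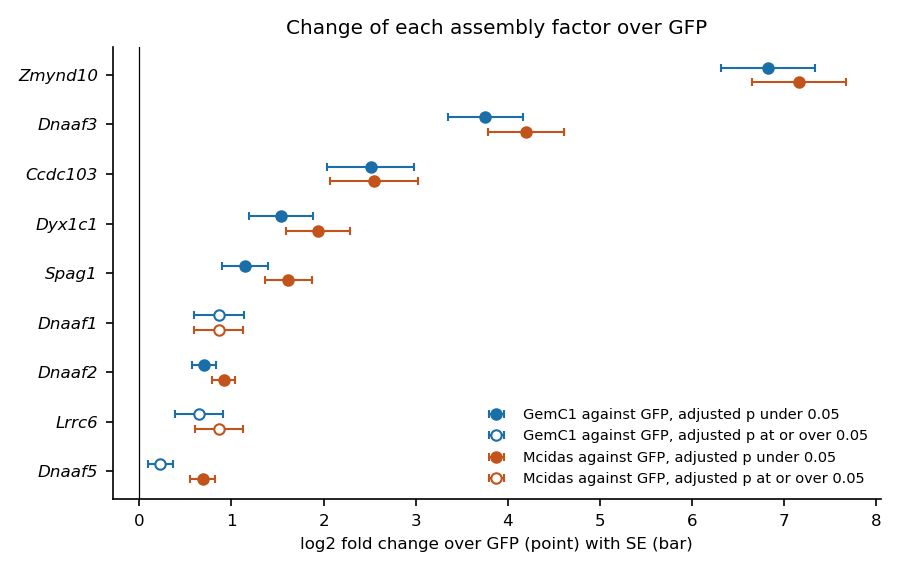
Log2 fold change of each assembly factor over GFP (horizontal axis; points, bars are SE) with GemC1 (blue) and Mcidas (orange), 3 libraries per group; filled points have an adjusted p under 0.05 and open points do not. Zmynd10 stands at 6.82 and 7.16, and Dnaaf5 at 0.23 and 0.69.

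Zmynd10 and Lrrc6 encode proteins that bind each other and act on the dynein heavy chains with chaperones. Zmynd10 (chr9:107547298-107551319, plus strand, build GRCm38, 11 merged exons) was at 0.147, 0.540 and 0.150 CPM in GFP replicates 1, 2 and 3, from 5, 22 and 5 counts. It was at 35.7, 35.9 and 29.3 CPM in the GemC1 replicates and at 20.1, 46.5 and 61.1 CPM in the Mcidas replicates. The lowest library with either factor was thus far above the highest GFP library. The log2 fold change was 6.82 ± 0.51 (SE) with GemC1, 113-fold, with an adjusted p of 1.76e-05. With Mcidas it was 7.16 ± 0.51, 143-fold, with an adjusted p of 8.23e-06. Because the GFP level rests on few counts, the size moves with 1 library: without GFP replicate 2 the log2 fold changes were 7.79 and 8.14. Among all genes Zmynd10 stood at rank 59 from the highest log2 fold change with GemC1 and at rank 71 with Mcidas. The antisense gene Gm34106 shares 10.1% of the exonic bases of Zmynd10, with 207, 187 and 190 counts with GemC1, 137, 273 and 243 with Mcidas and 0, 5 and 1 with GFP, and the kits do not mark strand.

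Its partner Lrrc6 (chr15:66379858-66500910, minus strand), a leucine-rich repeat protein, was at 2.73, 3.51 and 4.29 CPM in GFP, 4.65, 6.06 and 5.79 CPM with GemC1 and 4.35, 7.79 and 7.06 CPM with Mcidas. The groups did not overlap, but the lowest library of either factor lay close to GFP replicate 3. The log2 fold changes of 0.65 ± 0.26 (SE; adjusted p = 0.198) and 0.86 ± 0.26 (adjusted p = 0.113) did not pass. Without Mcidas replicate 1 the Mcidas value was 1.09 (adjusted p = 0.0211), and DESeq2 also called it (adjusted p = 0.0329). Lrrc6 was the only 1 of the 9 with no exon shared with another annotated gene.

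Dnaaf3 is needed for outer and inner arms alike. Dnaaf3 (chr7:4522933-4532453, minus strand) was at 0.323, 0.270 and 0.300 CPM in the GFP libraries, from 11, 11 and 10 counts. It was at 4.30, 4.74 and 3.16 CPM with GemC1 and at 2.76, 6.70 and 7.14 CPM with Mcidas. All 6 libraries with a factor lay well above the narrow GFP range. The changes were 3.76 ± 0.41 (SE; log2; adjusted p = 0.000122), 13.5-fold, and 4.20 ± 0.41 (adjusted p = 3.59e-05), 18.4-fold. Among all genes these were ranks 236 and 238 from the highest. Dnaaf3 shares 12.6% of its exonic bases with the antisense gene Gm15873, which had at most 24 counts in a library, and 3.87% with Tnni3.

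Ccdc103 encodes a small coiled-coil protein that binds microtubules and is found on the axoneme as well as in the cytoplasm. Ccdc103 (chr11:102881204-102885216, plus strand) was at 0.529, 1.50 and 0.750 CPM in GFP, where replicate 2 was highest. It was at 4.65, 5.99 and 5.43 CPM with GemC1, a narrow range, and at 2.10, 7.09 and 7.32 CPM with Mcidas, where replicate 1 came nearest to GFP. The groups did not overlap. The log2 fold change was 2.51 ± 0.47 (SE; adjusted p = 0.00806), 5.71-fold, with GemC1, and 2.55 ± 0.47 (adjusted p = 0.00606), 5.84-fold, with Mcidas. Without GFP replicate 3 the GemC1 change was 2.38 and did not pass (adjusted p = 0.0522).

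Dnaaf2, Dyx1c1 and Spag1 link the dynein chains to HSP90. Dnaaf2 carries a PIH domain, which is found in R2TP-type co-chaperones, and Dyx1c1 and Spag1 carry tetratricopeptide repeats that dock chaperones. Dnaaf2 (chr12:69189087-69198429, minus strand) was at 34.1, 37.0 and 37.3 CPM in GFP, 54.3, 56.8 and 65.4 CPM with GemC1 and 56.9, 67.5 and 80.7 CPM with Mcidas. It was therefore well expressed without either factor, and the gap between the groups was wide for its spread. The log2 fold changes were 0.70 ± 0.13 (SE; adjusted p = 0.00587) and 0.92 ± 0.13 (adjusted p = 0.000592), 1.63-fold and 1.89-fold. Dnaaf2 shares 32.7% of its exonic bases with the gene 9330151L19Rik on the other strand, 22.3% with Gm49383 and 20.6% with Gm49384, so that its counts may be incomplete or mixed.

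Dyx1c1 (chr9:72958785-72973064, plus strand) was at 1.53, 1.08 and 2.01 CPM in GFP, 3.74, 5.42 and 4.24 CPM with GemC1 and 3.23, 7.40 and 7.10 CPM with Mcidas. No library with a factor fell into the GFP range. Dyx1c1 rose by 1.54 ± 0.35 (log2, SE; adjusted p = 0.0234), 2.91-fold, with GemC1 and by 1.94 ± 0.35 (adjusted p = 0.00490), 3.84-fold, with Mcidas. The GemC1 call was lost without GemC1 replicate 2 (log2 fold change 1.38, adjusted p = 0.0750), GFP replicate 1 (1.54, adjusted p = 0.0666) or GFP replicate 2 (1.34, adjusted p = 0.107). The read-through gene Gm44503 covers 59.2% of the exonic bases of Dyx1c1 on the same strand and held between 2676 and 4052 counts, against 44 to 243 for Dyx1c1 itself. The Dyx1c1 values are uncertain for that reason, since counting may have set aside reads that both genes could claim.

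Spag1 (chr15:36178099-36235621, plus strand) was at 5.41, 5.53 and 6.84 CPM in GFP, 12.4, 16.7 and 10.3 CPM with GemC1 and 11.7, 19.8 and 23.2 CPM with Mcidas. The lowest library with a factor, GemC1 replicate 3, was still above the highest GFP library. Spag1 rose by 1.15 ± 0.25 (log2, SE; adjusted p = 0.0201), 2.22-fold, with GemC1 and by 1.62 ± 0.25 (adjusted p = 0.00172), 3.07-fold, with Mcidas. As for Dyx1c1, the GemC1 call was lost without GemC1 replicate 2 (0.94, adjusted p = 0.0750), GFP replicate 1 (1.09, adjusted p = 0.0694) or GFP replicate 2 (1.11, adjusted p = 0.0893).

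Dnaaf1, a leucine-rich repeat protein, and Dnaaf5, a protein built of HEAT repeats, act early in assembly. Dnaaf1 (chr8:119575235-119598454, plus strand) was at 6.47, 5.72 and 4.92 CPM in GFP, 12.4, 8.13 and 10.6 CPM with GemC1 and 6.57, 10.1 and 14.55 CPM with Mcidas. Mcidas replicate 1 was only just above GFP replicate 1. The log2 fold changes of 0.87 ± 0.27 (SE; adjusted p = 0.0887) and 0.86 ± 0.27 (adjusted p = 0.122) did not pass. Without Mcidas replicate 1, which also entered the estimate of the spread, both passed (0.87, adjusted p = 0.0350, and 1.11, adjusted p = 0.0126), and DESeq2 called both (adjusted p = 0.0237 and 0.0303). Taf1c on the other strand shares 20.7% of the exonic bases of Dnaaf1.

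Dnaaf5 (chr5:139150223-139186510, plus strand) was at 38.7, 42.4 and 33.7 CPM in GFP and at 46.2, 48.0 and 40.3 CPM with GemC1, and these groups overlapped. It was at 51.2, 60.0 and 74.0 CPM with Mcidas, above all other libraries. The change was 0.23 ± 0.14 (log2, SE; adjusted p = 0.399; 95% interval -0.07 to 0.53) with GemC1 and 0.69 ± 0.14 (adjusted p = 0.0105), 1.61-fold, with Mcidas. The Mcidas call was lost without Mcidas replicate 3 (0.54, adjusted p = 0.0545) or GFP replicate 3 (0.61, adjusted p = 0.0613). The plot of CPM by library shows the spread behind each of these values.

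**Figure D2:**
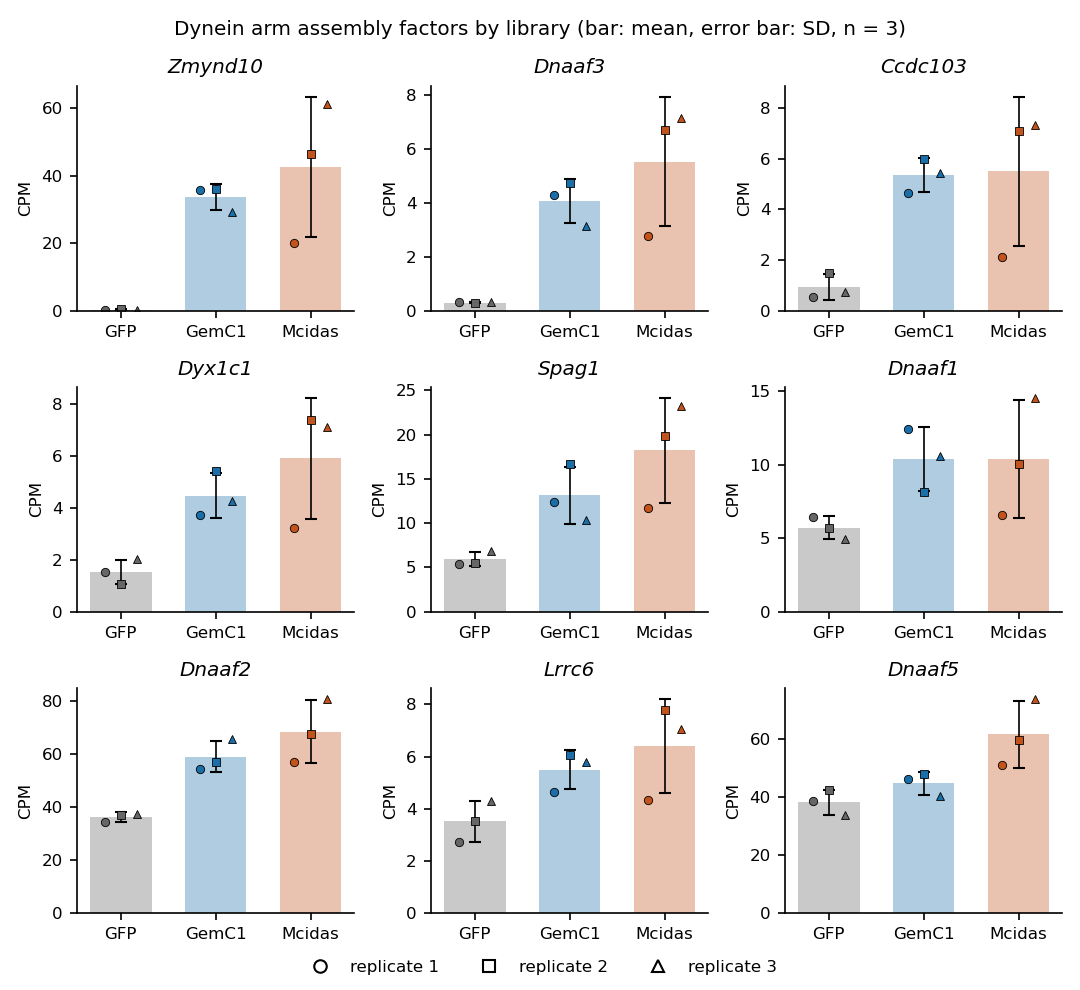
Level in CPM (vertical axis, linear, from 0; each panel has its own scale) of each assembly factor in the 3 groups, with 1 point per library, bars for the mean and error bars for the SD (n = 3). Zmynd10 and Dnaaf3 are near 0 in the GFP libraries, whereas Dnaaf2 and Dnaaf5 are above 30 CPM in every library; Mcidas replicate 1 (circle) is the lowest of its group in 9 of 9 panels.

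GemC1 was then set directly against Mcidas. None of the 9 was called in edgeR's test (0 of 9 at an adjusted p under 0.05), where 0.0511% of all genes were called, and 1 of 9, Dnaaf5, had an unadjusted p under 0.05. The level of Dnaaf5 was lower with GemC1 by 0.46 ± 0.14 (log2, SE; 95% interval -0.76 to -0.16; unadjusted p = 0.00587; adjusted p = 0.211), and its 3 GemC1 libraries lay below its 3 Mcidas libraries. DESeq2 called Dnaaf5 just under the threshold (log2 fold change -0.47, adjusted p = 0.0494). The other 8 overlapped between the groups. For GemC1 against Mcidas, the share of all genes with separate libraries or an unadjusted p under 0.05 was not counted. The 1 of 9 is therefore a description and not a result about the factors.

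The estimates were below 0 for 8 of 9, with a median of -0.34, against -0.0044 over all genes. The 95% interval of the difference between GemC1 and Mcidas was -1.07 to 0.40 for Zmynd10, -1.17 to 0.29 for Dnaaf3 and -0.97 to 0.90 for Ccdc103. It was -1.12 to 0.32 for Dyx1c1, -1.01 to 0.06 for Spag1 and -0.49 to 0.06 for Dnaaf2. Dnaaf1, at -0.57 to 0.58, and Lrrc6, at -0.78 to 0.35, had intervals to both sides of 0 of similar width. These 8 intervals all include 0, which does not show that GemC1 and Mcidas gave equal levels.

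Among the Mcidas libraries, replicate 1 was the lowest for 9 of 9 factors, and replicate 3 was the highest for 7 and replicate 2 for 2 (Dyx1c1 and Lrrc6). Taken over the 9 factors, the median log2 ratio to the mean of the GFP libraries was 0.98 in Mcidas replicate 1, 1.74 in replicate 2 and 1.97 in replicate 3. In those libraries Mcidas itself was at 388, 508 and 597 CPM, and Foxj1, a master regulator of motile cilia, at 95.8, 170.2 and 183 CPM. That the plasmid gene and the median over the factors had the same order in these 3 libraries is a description only. In the GemC1 libraries the medians were 1.13, 1.49 and 0.90, with Gmnc at 291, 223 and 317 CPM, so that the library with the highest assembly factors had the lowest Gmnc. Without Mcidas replicate 1, singled out because it was lowest, the number of factors that rose was 9 of 9 with Mcidas and 7 of 9 with GemC1. Over all genes, 951 in place of 788 then rose with Mcidas and 877 in place of 756 with GemC1. Without GFP replicate 2, 4 factors were called with GemC1, and without GFP replicate 3, 6 with Mcidas. The plot of libraries relative to GFP shows the order of the libraries.

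**Figure D3:**
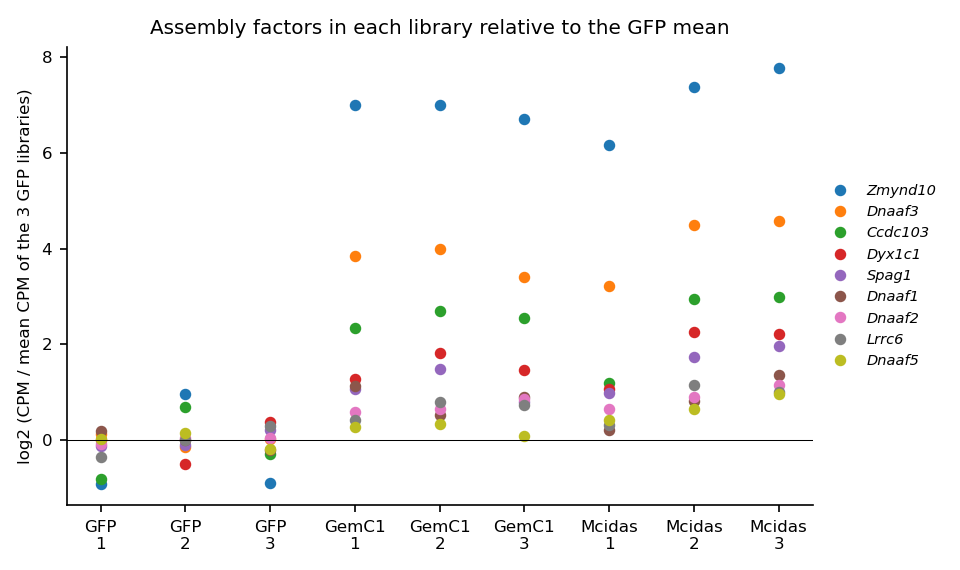
Log2 of each library's CPM over the mean CPM of the 3 GFP libraries (vertical axis) for the 9 assembly factors (colours) in each of the 9 libraries (horizontal axis). All GemC1 and Mcidas points lie above 0, and the median over the factors is 0.98 in Mcidas replicate 1 against 1.74 and 1.97 in the others of that group.

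Levels of different genes were compared per length, as RPKM (depth-scaled counts divided by the length of the merged exons in kilobases), with mean ± SD over 3 libraries. In GFP cells Dnaaf5 (10.9 ± 1.25) and Dnaaf2 (10.7 ± 0.519) were highest, and their libraries overlapped. Dnaaf1 (2.02 ± 0.275) and Lrrc6 (1.68 ± 0.373) followed and also overlapped, and then came Dyx1c1 (0.779 ± 0.235), Spag1 (0.530 ± 0.0710) and Ccdc103 (0.490 ± 0.269). Dnaaf3 (0.134 ± 0.0120) and Zmynd10 (0.131 ± 0.106) were lowest and lay below every library of the other 7. The merged exons of Spag1 sum to 11167 bases, more than those of any other factor, which lowers its value per length. A single overlapping gene shares 59.2% of the exonic bases of Dyx1c1, 32.7% of Dnaaf2 and 20.7% of Dnaaf1. Reads there may have been set aside or mixed, so the places of these genes are uncertain in all 3 groups.

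With GemC1 Dnaaf2 was at 17.4 ± 1.72, Zmynd10 at 15.8 ± 1.77 and Dnaaf5 at 12.8 ± 1.15, and the other 6 lay between Dnaaf1 (3.69 ± 0.768) and Spag1 (1.18 ± 0.291). Between these came Ccdc103 (2.83 ± 0.356), Lrrc6 (2.64 ± 0.358), Dyx1c1 (2.26 ± 0.437) and Dnaaf3 (1.83 ± 0.368), neighbours whose ranges met. The libraries of Dnaaf2 and Zmynd10 overlapped. Zmynd10, level with Dnaaf3 at the bottom of the 9 in GFP, thus had the second highest mean.

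With Mcidas the same 3 genes, Dnaaf2 (20.2 ± 3.51), Zmynd10 (20.01 ± 9.77) and Dnaaf5 (17.6 ± 3.28), were highest, and their ranges over the libraries met. The ranges of Dnaaf1 (3.69 ± 1.42), Lrrc6 (3.07 ± 0.871), Dyx1c1 (2.99 ± 1.18), Ccdc103 (2.91 ± 1.56) and Dnaaf3 (2.49 ± 1.08) also met, and Spag1 was at 1.63 ± 0.530. Mcidas replicate 1 was lowest for 9 of 9 factors, which widens these ranges. They do not show the order of genes within each library, which was not compared.

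**Figure D4:**
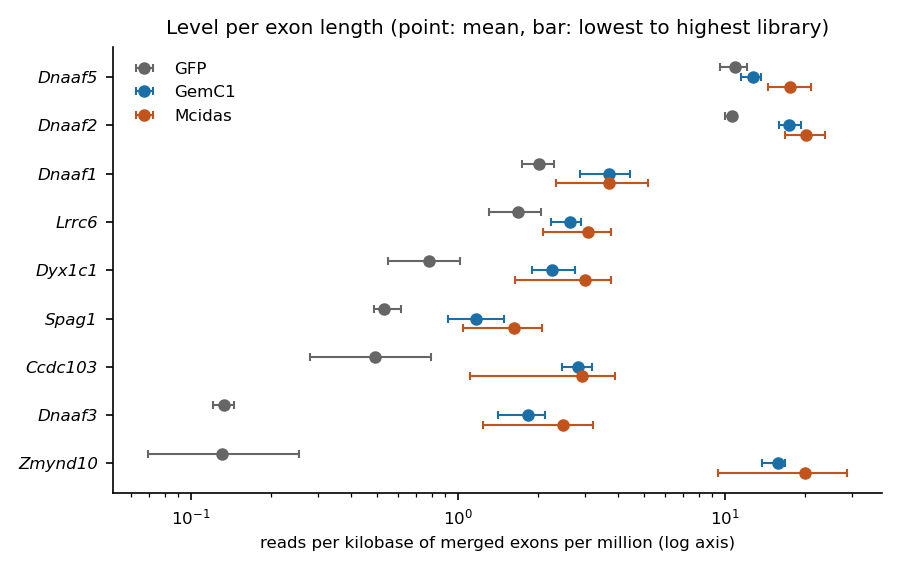
Level per length (RPKM, log axis) of the 9 assembly factors in GFP (grey), GemC1 (blue) and Mcidas (orange); points are means of 3 libraries and bars run from the lowest to the highest library. Zmynd10 moves from 0.131 to 15.8 and 20.01, whereas Dnaaf5 moves from 10.9 to 12.8 and 17.6.

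Other proteins known or proposed to act in arm assembly were read from a list of 10 matched genes, of which 9 were tested. In each comparison with GFP 5 of 9 rose and none fell, with a median log2 fold change of 0.63 with GemC1 and 0.80 with Mcidas. Daw1, which carries arms into cilia, rose by 5.06 ± 0.68 (log2, SE; adjusted p = 0.000622) with GemC1 and by 5.82 ± 0.68 (adjusted p = 0.000157) with Mcidas. Pih1d2, a PIH protein like Dnaaf2, rose by 2.67 and 2.82 (adjusted p = 9.61e-05 and 4.43e-05). The rises of Ttc12 were 2.39 and 2.94, those of 1110004E09Rik (now Cfap298) 1.41 and 1.51, and those of Lrrc56 0.53 and 0.80. The remaining 4 did not pass: 9230110C19Rik (now Cfap300) at 0.63 and 0.72, Wdr92 at 0.07 and 0.10, Dnaaf8 at -0.17 and -0.09, and Dnaaf9 at -0.14 and -0.09. Pih1d3 had 0 counts in all 9 libraries. Its annotated relative on chromosome X, Pih1h3b, looked up after these values were seen, had 4, 4 and 8 counts with GemC1, 4, 21 and 9 with Mcidas and 0 in each GFP library, too few to test.

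Few of the general chaperones that work with these factors were called, as was the case over all genes. Among 19 genes of the R2TP complex and the HSP90 system the median log2 fold change was 0.10 with GemC1 and 0.0050 with Mcidas. In edgeR's test 1 of the 19 rose with GemC1 and 2 rose with Mcidas, where 3.86% and 4.03% of all genes rose. At these shares a list of this size holds few calls in any case. In the same test 3 and 4 had an unadjusted p under 0.05, and DESeq2 called 2 and 2. The share of all genes with such an unadjusted p was not counted. Over all genes DESeq2 called 1159 higher and 654 lower with GemC1, and 1081 higher and 114 lower with Mcidas. Ruvbl2, an ATPase of R2TP, rose with GemC1 (0.81 ± 0.12, SE; adjusted p = 0.00130), and it rose with Mcidas (0.76 ± 0.12; adjusted p = 0.00152) together with Hsp90aa1 (0.49 ± 0.09; adjusted p = 0.00533), named after its value was seen. Its partner Ruvbl1 did not pass (0.33, adjusted p = 0.0946, with GemC1). Of 8 subunits of the CCT chaperonin, which folds tubulin and some dynein partners, 0 were called with either factor in edgeR's test. In that test 0 had an unadjusted p under 0.05, and DESeq2 called 0. At the shares over all genes, 0 calls among 8 genes do not set this list apart.

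Most of the chains that these factors assemble rose as well. Of 11 tested outer arm chains 8 rose with GemC1 and 8 with Mcidas, with medians of 1.10 and 1.61. Dynlrb2, a light chain, went from 0.189 ± 0.199 CPM in GFP to 27.4 ± 0.869 CPM with GemC1 and 34.5 ± 15.2 CPM with Mcidas (SD, n = 3). The intermediate chain Dnaic2 rose by 5.30 and 5.98, the heavy chain Dnah9 by 3.47 and 4.48, and the intermediate chain Dnaic1 by 3.35 and 4.10. Of 13 inner arm chains 11 rose with GemC1 and 12 with Mcidas, with medians of 2.91 and 3.07, among them Dnah12 (6.47 and 7.29), Dnah6 (7.41 and 7.97), Dnah10 (4.87 and 6.23) and Dnali1 (3.33 and 3.66). In the GFP replicates Dnah6 was at 0, 0.196 and 0 CPM and Dnah12 at 0.0294, 0.270 and 0 CPM, so these fold changes rest mostly on GFP replicate 2. Wdr63, another inner arm chain, had 0 counts in all GFP libraries and 15.2 ± 4.49 CPM (SD, n = 3) with GemC1, so its fitted value, the rightmost point in the plot of pathway lists, is no measured fold; the list median is the same at any value of Wdr63 above it. All 4 tested docking complex genes rose with both: Ccdc151 by 3.50 and 3.75, Ttc25 by 3.15 and 4.24, Ccdc114 by 4.11 and 4.48, and Efcab1 by 3.67 and 4.41. The median changes of the chains and docking genes stand beside 1.15 and 1.62 for the 9 assembly factors, and differences between lists were not tested.

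Cytoplasmic dynein is the related motor that carries cargo along microtubules in the cell body. The list of 15 genes for this motor also held its partners Dctn1, of dynactin, and Pafah1b1. Of the 15 genes 0 passed in edgeR's test with either factor, with medians of -0.10 and -0.08. As 3.86% and 4.03% of all genes rose, and 259 and 64 genes fell, 0 calls among 15 genes do not set this list apart. With GemC1 4 had an unadjusted p under 0.05 in edgeR's test, all of them lower (Dync1h1, Dynlt1a, Dync1li2 and Dync1li1), and DESeq2 called 2. With Mcidas 1 had such a p, Dync1i1, which was higher, and DESeq2 called 0. The share of all genes with such an unadjusted p was not counted. Among transcription factors and regulators of motile cilia 6 of 11 rose with each factor. Foxj1 rose by 6.83 and 7.14, Trp73 by 7.74 and 7.60, Ccno by 4.79 and 5.12 and Myb by 2.48 and 2.86. Of the listed RFX genes, whose site is printed above, only Rfx2 rose, by 2.27 ± 0.29 (SE; adjusted p = 0.000496) and 2.68 ± 0.29 (adjusted p = 0.000107). Rfx3, with 69.8 ± 7.03 CPM in GFP (SD, n = 3), was at -0.20 (adjusted p = 0.310) and 0.05 (adjusted p = 0.910). Rfx1, Rfx4, Rfx5 and Rfx7 did not pass either, with log2 fold changes of at most 0.14 with GemC1 and 0.24 with Mcidas.

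**Figure D5:**
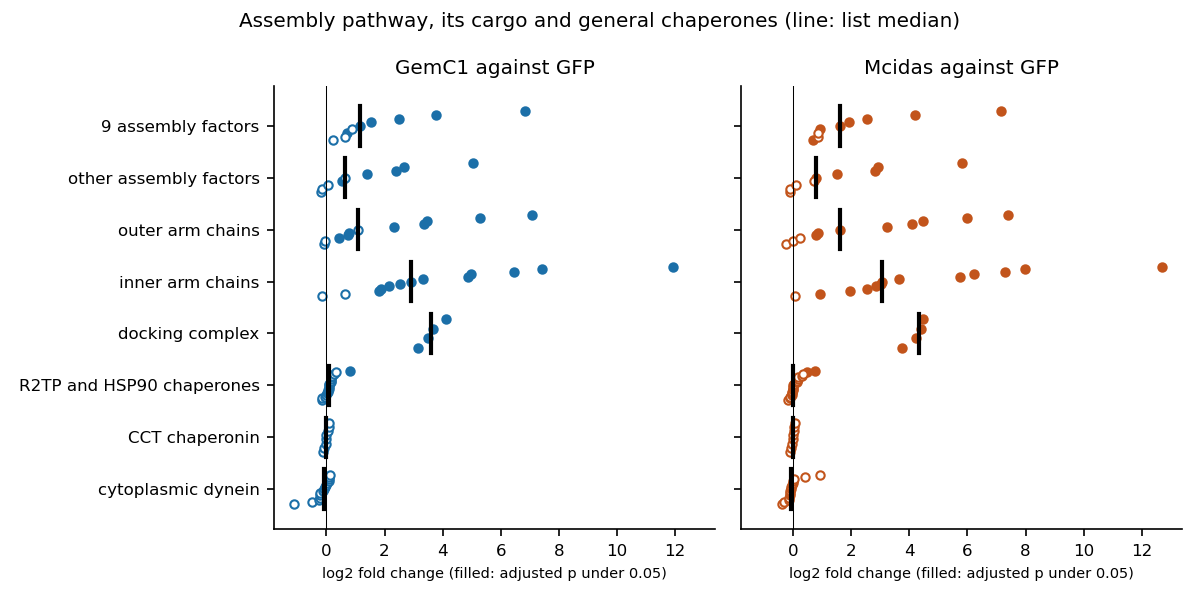
Log2 fold change over GFP (horizontal axis) with GemC1 (left) and Mcidas (right) for the 9 assembly factors, the other assembly factors, their cargo, the docking complex, chaperones and cytoplasmic dynein; each point is a gene (filled when its adjusted p is under 0.05) and black lines are list medians. Medians are 1.15 and 1.62 for the 9 factors, 2.91 and 3.07 for inner arm chains, and 0.10 and 0.0050 for the R2TP and HSP90 list.

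Over the 9 libraries the factors followed similar profiles. Pearson's r of log2 CPM between pairs of factors ran from 0.676 to 0.982, with a median of 0.884 over 36 pairs, and the lowest was 0.820 when Dnaaf1 and Dnaaf5 were set aside. Such values mostly describe the step between GFP and the other libraries, which all pairs share, and are given as a description. The genes most like the mean profile of the 9 were 1110017D15Rik (r = 0.994), Usp2 (0.993), Cfap74 (0.990), Chchd10 (0.990) and Spef1 (0.990). For Zmynd10 they were Dynlrb2 (0.999), Fam216b, the overlapping Gm34106, Cfap206 and Fam183b. For Dnaaf3 they were Tppp3 (0.997), Tmem107, Dmkn, Cfap161 and Ptx4, and for Ccdc103 Bphl (0.987), Tm4sf1, 1700012C08Rik, Polk and Rnf32.

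For Dnaaf2 the closest genes were Tsnaxip1 (r = 0.992), Hspa4l, Gm15841, Zc2hc1c and Gm36640. For Dyx1c1 they were Ccdc150 (0.986), Fam161a, Spa17, Gm14232 and Ttc12, the last of these itself on the list of other assembly factors. For Spag1 they were Adgrb2 (0.985), Gm14232, Cep78, E030032P16Rik and Ccdc150. Dnaaf5, the factor with the smallest changes, was most like Gm24103 (0.969), Fchsd2, Lrrc51, Gm15537 and Mast4.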

How the data were processed

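RNA of 9 libraries was analysed from the deposited raw read counts per Ensembl gene, 1 table a library, as the file headers and whole-number values show. Libraries were made with the SMART-Seq v4 and Nextera XT kits from 10 ng of RNA and read for 75 bp, per the labels' protocols; neither kit marks strand. Build mm10, HTSeq 0.5.3, STAR 2.5.2b and DESeq2 1.8.1 are listed in the submitters' processing notes; neither the annotation release nor the strand setting is given in the sources used here. Symbols, positions and exon lengths came from GENCODE M21 (GRCm38), which matched 53274 of 53379 identifiers. Counts were tested with edgeR 4.0.16 in R 4.3.3: filterByExpr (minimum count 10, minimum total 15), TMM scaling, all 9 libraries in 1 robust quasi-likelihood fit with group as the only term, two-sided, Benjamini-Hochberg adjustment over 19572 genes, called under 0.05. SE and 95% intervals derive from the quasi-likelihood F. CPM uses TMM-scaled totals, and 3 counts equal 0.0729 to 0.131 CPM before scaling, which covers counting error only. Likeness used log2 CPM with a prior count of 2.

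The members and all gene lists were chosen with earlier results of these data known. Named genes are the 9 members, the other assembly factors, up to 4 called genes of each other list with the smallest adjusted p in GemC1 against GFP, Foxj1, Rfx2, Rfx3, and the 5 most similar genes per called member. Hsp90aa1, Hes5, Ttr, Kl, Kcnj13, Ruvbl1, Wdr63, Tnni3, Taf1c and the overlapping genes were named after their values were seen. So were Sox2, Vim, Fabp7, Slc1a3, Eomes, Rfx1, Rfx4, Rfx5, Rfx7 and the genes named from the cytoplasmic dynein list. The fit was tested on simulated data. Alternatives were DESeq2 1.42.0, its size factors within edgeR, a filter left out or made stricter (1 CPM in 3 libraries), a replicate block, a fit of only the groups compared, removal of mitochondrial and plasmid gene counts, and removal of each library.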

Additional observations from a re-analysis of the deposited data

How the results depend on the processing

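Across 16 alternatives the number of assembly factors called was 4 to 7 in GemC1 against GFP (the same count in 8), 6 to 9 in Mcidas against GFP (the same in 11) and 0 or, in DESeq2, 1 in GemC1 against Mcidas. Of the values of single factors, 401 kept their direction and side of the threshold, 9 fell below it, 10 rose past it and 12 changed sign. Those that changed sign were uncalled differences between GemC1 and Mcidas. Dnaaf1 went to -0.0074 with DESeq2 size factors, -0.0078 in DESeq2 and -0.013 with the stricter filter, and ran from -0.245 to 0.321 when a library was left out. Ccdc103 was at 0.13 with the replicate block and ran from -0.43 to 0.22 without single libraries, and Zmynd10 ran from -0.68 to 0.014.

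For all genes, DESeq2 gave 1159 higher and 654 lower genes in GemC1 against GFP (756 and 259 in edgeR), 114 lower in Mcidas against GFP (64), and 193 higher and 305 lower in GemC1 against Mcidas (3 and 7). Without the low-count filter, 557, 123, 66 and 129 replaced 259, 64, 3 and 7. GemC1 against Mcidas gave 2 lower genes with only those groups and 3 without mitochondrial and plasmid gene counts. Leaving out a library gave 443 (without GFP replicate 3; 472 without GFP replicate 2) to 877 higher and 32 to 267 lower genes in GemC1 against GFP, 29 to 99 lower in Mcidas against GFP, and 3 to 5 higher and 1 to 8 lower in GemC1 against Mcidas. The cause was not tested.

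Same-numbered libraries did not deviate together (correlations of deviations from -0.0744 to 0.0465), so the numbers were not taken as pairs. The replicate block called 6, 7 and 0 factors, with 147 lower genes in GemC1 against GFP and 3 in GemC1 against Mcidas.

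Zmynd10 and Dnaaf3 had 5 to 22 counts in the GFP libraries, which limits the precision of their fold changes.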
